A study of Homo sapiens with 4 samples.

Results

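The genes described here encode the amyloid precursor protein family and proteins of clathrin-coated vesicles and of the Golgi-to-endosome route and carry alternative exons that change those proteins. They are APP, APLP2 and APLP1, PICALM, CLTA, CLTB, DNM2, BIN1, NUMB and GOLIM4, 10 of the 35351 genes in the deposited tables. Rows were taken by gene identifier, which gave 265 of 350863 annotated splice junctions. The values are counts of ribosome footprints that cross a splice junction. A footprint is the stretch of messenger RNA that a ribosome protects from nuclease, so a footprint across a junction is taken to show which exons were joined in an RNA with a ribosome on it.

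K562, a leukemia line with erythroid traits that was derived from chronic myelogenous leukemia, was set against HepG2, a liver tumor line with hepatocyte traits. By the labels there are 2 samples of each line, with no genotype, agent or time that differs between them, and cycloheximide, which arrests elongating ribosomes, was in the lysis buffer of both. RNase I was the nuclease, and RiboZero removed ribosomal RNA. Both samples of a line share 1 table, so no value has a replicate check and no standard deviation or p-value could be given. All intervals are exact at 95% and reflect counting error alone. Each line is an established tumor culture and stands for no normal tissue.

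The K562 table held 7487508 uniquely mapped junction reads (74.0% of all mapped reads) and that of HepG2 held 9927809 (82.7%). The 10 genes took 12229 (0.163%) of them in K562 and 24655 (0.248%) in HepG2. On the TMM scale (a scaling that balances the bulk of genes) the effective depths were 8336980 in K562 and 8298280 in HepG2, so that reads in the tables can be read side by side. The labels were checked with defining markers. The summed reads of 6 erythroid markers were 11829 in K562 against 0 in HepG2, and those of 6 hepatocyte markers were 233 in K562 against 978493 in HepG2. MTAP, which K562 is known to lack, had 0 reads in K562 against 249 in HepG2.

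The amyloid precursor family consists of membrane proteins with a large outer part that is shed by secretases, and the short tail inside the cell carries a signal for uptake through clathrin-coated pits. APP and APLP2, but not APLP1, have an alternative exon for a Kunitz protease inhibitor (KPI) domain, a small fold held by disulfide bonds that blocks serine proteases. In clathrin-mediated uptake, PICALM and other adaptors bring clathrin to the membrane, the light chains CLTA and CLTB bind the clathrin heavy chain, BIN1 bends the neck of the pit, the GTPase DNM2 cuts it, and NUMB selects cargo such as Notch and integrins. GOLIM4 (GPP130) is a membrane protein of the cis-Golgi that cycles through endosomes. Several of these genes are known for exons that are used in brain or muscle and skipped elsewhere.

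The exons on which the results turn are given here 5′ to 3′ on the coding strand, from the GENCODE release 29 transcripts on GRCh38. Capitals mark the alternative exon, and the 15 lower-case bases on each side are its neighbours in the joined RNA. The pair of KPI exons comes first, since APLP2 and APP can be compared there. Then follow the 36-base exon of APLP2, the exons of GOLIM4 and PICALM with different use in K562 and HepG2, and a short exon each of NUMB and DNM2 that lies near or below the length of a footprint.
APLP2 KPI exon, chr11:130123612-130123779 (+): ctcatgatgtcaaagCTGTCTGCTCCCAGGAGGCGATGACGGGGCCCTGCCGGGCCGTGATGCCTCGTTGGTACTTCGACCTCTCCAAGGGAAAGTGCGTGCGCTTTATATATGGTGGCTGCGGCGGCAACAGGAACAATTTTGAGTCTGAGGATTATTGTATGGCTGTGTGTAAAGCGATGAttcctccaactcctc
APP KPI exon, chr21:26000015-26000182 (-): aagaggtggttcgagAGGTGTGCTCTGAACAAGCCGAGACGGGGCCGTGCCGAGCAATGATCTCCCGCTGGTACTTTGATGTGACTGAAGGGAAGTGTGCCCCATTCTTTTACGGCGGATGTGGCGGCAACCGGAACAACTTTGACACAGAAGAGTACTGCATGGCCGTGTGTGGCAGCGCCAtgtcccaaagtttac
APLP2 exon 14, chr11:130137256-130137291 (+): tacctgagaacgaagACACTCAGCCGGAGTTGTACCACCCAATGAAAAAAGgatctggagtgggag
GOLIM4 exon 7, chr3:168040786-168040869 (-): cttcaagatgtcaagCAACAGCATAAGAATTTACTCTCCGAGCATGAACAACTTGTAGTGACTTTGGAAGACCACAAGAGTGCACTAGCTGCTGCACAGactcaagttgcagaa
PICALM 24-base exon, chr11:85978070-85978093 (-): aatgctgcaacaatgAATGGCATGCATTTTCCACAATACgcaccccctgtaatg
NUMB 33-base exon, chr14:73316390-73316422 (-): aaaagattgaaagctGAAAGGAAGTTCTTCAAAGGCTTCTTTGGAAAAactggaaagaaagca
DNM2 12-base exon, chr19:10808569-10808580 (+): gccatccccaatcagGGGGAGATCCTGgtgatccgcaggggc

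Both KPI exons are 168 bases long, the seventh of 18 exons, and 109 of their bases (64.9%) are identical. Read in frame, each holds 6 cysteine codons and no stop codon. Exon 14 of APLP2 has 36 bases, exon 7 of GOLIM4 has 84, and the lengths of these 7 exons are all multiples of 3, so that skipping keeps the frame.

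The first comparison asked how many footprints each gene had in K562 against HepG2. APP, APLP2 and GOLIM4 were higher in HepG2, no member was higher in K562, and 7 passed neither limit. The rule for such a call was an interval of the ratio that lay past 2-fold as a whole. It was met by 16.8% of 10956 genes toward K562 and by 21.9% toward HepG2, so the 0 and 3 of 10 members stand beside those shares. The median log2 ratio of K562 to HepG2 was 0.02 over the members and -0.01 over all genes. Footprint counts join the amount of an RNA with the number of ribosomes on it, and in pooled cells fewer cells with a gene and less RNA per cell cannot be told apart.

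**Figure D1:**
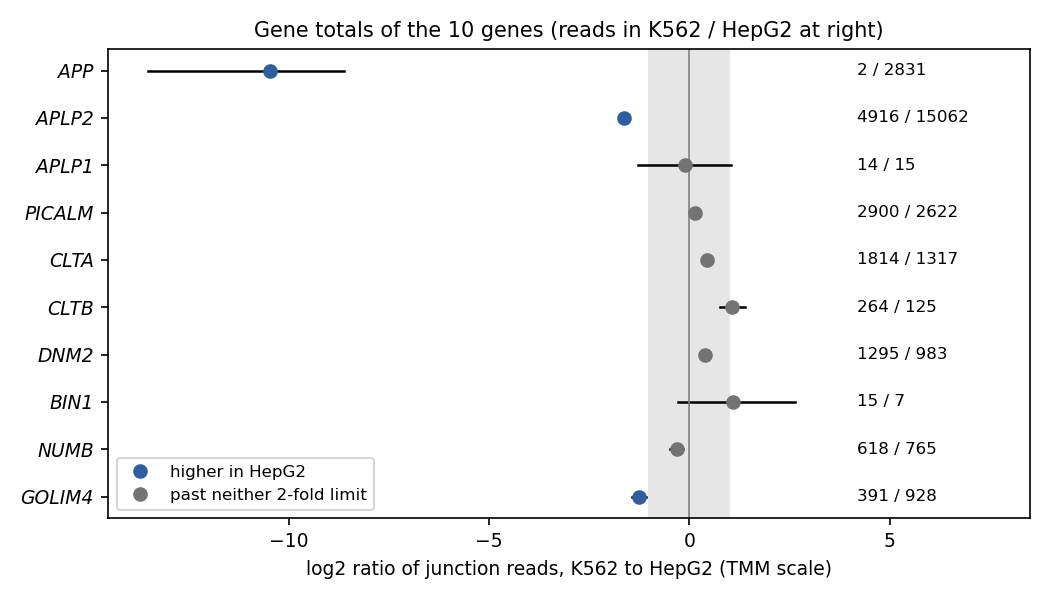
Gene totals of the 10 genes. Points are log2 ratios of uniquely mapped junction reads, K562 to HepG2, on the TMM scale, lines are exact 95% intervals, the grey band marks 2-fold, and the reads of K562 and HepG2 stand at the right. APP lies at -10.47, APLP2 and GOLIM4 at -1.62 and -1.25 have intervals wholly past 2-fold, and the other 7 lie in the band or reach into it.

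APP (ENSG00000142192, chr21:25880550-26171128), the precursor of amyloid beta, had 2 reads in K562 against 2831 in HepG2. Taken as HepG2 to K562, the ratio was 1422 (393 to 11749). Per junction of its reference transcript this was 0.118 reads in K562 against 166 in HepG2. All 16 of its well-read junctions (those of the reference transcript with 20 or more reads over both lines) were on the HepG2 side, and none had more than 1 read in K562. APP exons can therefore be described in HepG2 only.

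APLP2 (ENSG00000084234, chr11:130068147-130144811), the widely expressed relative of APP, had 4916 reads in K562 against 15062 in HepG2, the most of the 10 genes in both lines. Taken as HepG2 to K562, the ratio was 3.08 (2.98 to 3.18). Its 17 well-read junctions did not share this ratio. Their log2 ratios of K562 to HepG2 ran between -2.85 and 1.81, with 14 on the HepG2 side and 3 on the K562 side, and the 3 were junctions into or out of the alternative exons 7 and 14.

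APLP1 (ENSG00000105290), the family member known mainly from neurons, had 14 reads in K562 against 15 in HepG2, a K562-to-HepG2 ratio of 0.929 (0.415 to 2.06). These counts are too low for any of its exons. Of 7 neuron markers, 5 were at 0 in K562 and 6 at 0 in HepG2, and SYT1 with 18 reads in K562 against 1 in HepG2 gave most of the summed 19 reads in K562 against 1 in HepG2.

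PICALM (ENSG00000073921, chr11:85957684-86069882), a clathrin assembly protein that binds membrane lipids, had 2900 reads in K562 against 2622 in HepG2, a K562-to-HepG2 ratio of 1.10 (1.04 to 1.16). The light chain gene CLTA (ENSG00000122705, chr9:36190856-36304781) had 1814 reads in K562 against 1317 in HepG2, a ratio of 1.37 (1.28 to 1.47), and the log2 ratio was 0.04 once the most-read junction was left out, against 0.46 with it. CLTB (ENSG00000175416, chr5:176392455-176416569), the other light chain gene, had 264 reads in K562 against 125 in HepG2, a ratio of 2.10 (1.69 to 2.62). The interval of CLTB reached below 2-fold, and it was counted as higher in K562 when total reads set the scale. PICALM and CLTA were thus within 2-fold by their whole intervals.

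DNM2 (ENSG00000079805, chr19:10718079-10833488), the dynamin of most tissues, had 1295 reads in K562 against 983 in HepG2, a ratio of 1.31 (1.21 to 1.43). NUMB (ENSG00000133961) had 618 reads in K562 against 765 in HepG2, a ratio of 0.804 (0.722 to 0.895), and with total reads as the scale its log2 ratio changed sign to 0.10. BIN1 (ENSG00000136717), an amphiphysin-like protein with brain and muscle isoforms, had 15 reads in K562 against 7 in HepG2, a ratio of 2.13 (0.819 to 6.18) that does not set the lines apart. GOLIM4 (ENSG00000173905, chr3:168008677-168095975) had 391 reads in K562 against 928 in HepG2, a HepG2-to-K562 ratio of 2.38 (2.12 to 2.69). All 11 of its well-read junctions, in a reference transcript that includes exon 7, were on the HepG2 side, with log2 ratios of K562 to HepG2 between -3.86 and -0.66. GOLIM4 was short of the 2-fold rule with total reads as the scale, at a log2 ratio of -0.83.

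The second comparison asked which exons were joined into the translated RNA. For each exon with a junction that spans it, reads that enter it and reads that leave it were each set against the spanning reads, which gives an entering and a leaving share. An exon was counted when both shares differed by at least 20 points in the same direction with intervals that did not overlap. The members had 64 exons with a spanning junction, 37 had 10 or more reads for each share in both lines, 1 was counted as higher in K562 and 3 as higher in HepG2. Over 11222 exons of all genes, the share was 0.267% for K562 and 0.401% for HepG2. Most of those exons are nearly always in or out. Of 2462 exons with a mean inclusion between 5 and 95%, a limit set after seeing the data, 3.05% were counted in either line, and the 4 counted member exons were among 17 member exons in that range. The members were chosen for known alternative exons and with earlier results of these data known, so the counts describe them and no more is read from the shares.

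**Figure D2:**
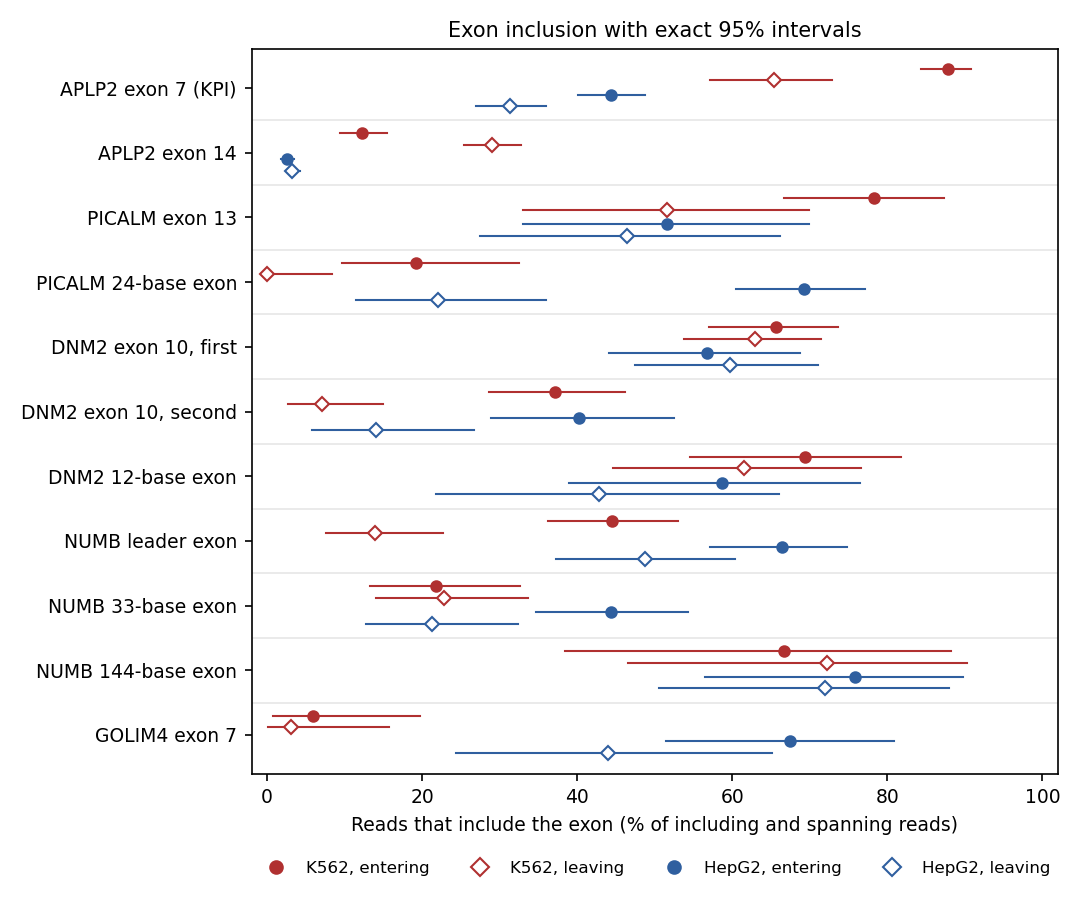
Inclusion of the named exons of APLP2, PICALM, DNM2, NUMB and GOLIM4, all with 10 or more reads per share in both lines. The nearly absent inserts of CLTA and CLTB are not drawn. The axis gives reads that include the exon as a percent of including and spanning reads, filled circles are entering and open diamonds leaving shares, K562 is red and HepG2 blue, and lines are exact 95% intervals. APLP2 exon 7 has both K562 shares to the right of both HepG2 shares, and GOLIM4 exon 7 has both K562 shares to the left. For the pair of DNM2 exons 10, the leaving share of the first and the entering share of the second mix reads of both ends.

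The KPI exon of APLP2 was used more in K562. Reads into it numbered 374 of 426 in K562 (87.8%, 84.3 to 90.7), against 233 of 525 in HepG2 (44.4%, 40.1 to 48.7). Reads out of it numbered 98 of 150 in K562 (65.3%, 57.1 to 72.9), against 133 of 425 in HepG2 (31.3%, 26.9 to 35.9). The shares differed by 43.4 and 34.0 points, and the intervals of the lines were apart on both sides. The junction that skips the exon had 52 reads in K562 against 292 in HepG2, a K562-to-HepG2 ratio of 0.177 (0.129 to 0.239). The junction into the exon had a ratio of 1.60 (1.35 to 1.89), although the whole gene was at 0.325. The call held with 99% intervals. Reads into the exon outnumbered reads out of it in both lines, and the cause of that was not tested.

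In HepG2 the KPI exon of APP was in nearly all footprints. Reads into it numbered 120 of 121 (99.2%, 95.5 to 99.98) and reads out of it 14 of 15 (93.3%, 68.1 to 99.8). APP exon 8, which follows it and codes for a short stretch related to the OX-2 antigen, had 13 of 15 reads in (86.7%, 59.5 to 98.3) and 49 of 51 out (96.1%, 86.5 to 99.5). Thus, within HepG2, the entering shares of the KPI exon stood at 99.2% in APP and 44.4% in APLP2, with intervals that did not overlap, although the exons have the same length and place. K562 had no read at either of these APP exons.

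Exon 14 of APLP2 and exon 15 of APP lie at the same part of both proteins, before the membrane-spanning segment. Skipping of the APP exon creates an attachment site for chondroitin sulfate, as does skipping of the APLP2 exon in mouse. APLP2 exon 14 had 60 of 492 reads in (12.2%, 9.44 to 15.4) in K562 and 39 of 1537 (2.54%, 1.81 to 3.45) in HepG2. It had 176 of 608 reads out (28.9%, 25.4 to 32.7) in K562 and 50 of 1548 (3.23%, 2.41 to 4.24) in HepG2. Both shares were higher in K562 with intervals apart, but the entering difference of 9.66 points was under the 20-point rule, so the exon was not counted. The skipping form prevailed in both lines. The junction out of the exon had a K562-to-HepG2 ratio of 3.50 (2.55 to 4.90), the highest among the well-read APLP2 junctions. No HepG2 footprint skipped APP exon 15, with 211 of 211 reads in (98.3 to 100%) and 101 of 101 out (96.4 to 100%), and K562 had no read there.

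**Figure D3:**
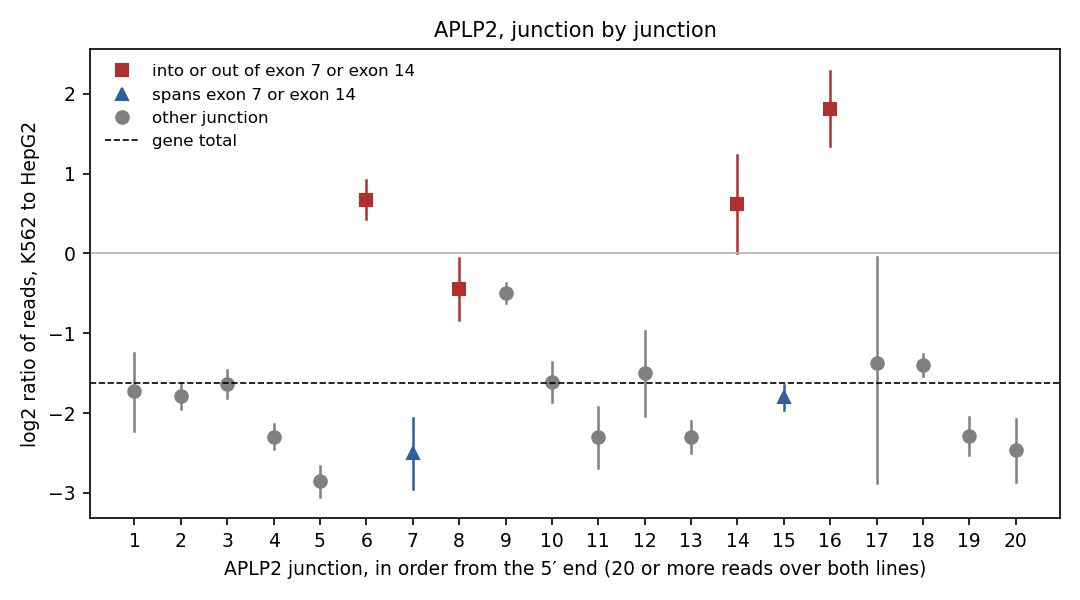
APLP2 junctions with 20 or more reads over both lines, in order from the 5′ end. The vertical axis is the log2 ratio of reads, K562 to HepG2, with exact 95% intervals, the dashed line is the gene total at -1.62, red squares lead into or out of exon 7 or 14 and blue triangles span them. The squares lie between -0.45 and 1.81, and the triangles at -2.50 and -1.80.

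The 84-base exon 7 of GOLIM4 went the other way from the KPI exon. Reads into it numbered 2 of 34 in K562 (5.88%, 0.720 to 19.7), against 29 of 43 in HepG2 (67.4%, 51.5 to 80.9). Reads out of it numbered 1 of 33 in K562 (3.03%, 0.077 to 15.8), against 11 of 25 in HepG2 (44.0%, 24.4 to 65.1). The junction that skips it had 32 reads in K562 against 14 in HepG2, a K562-to-HepG2 ratio of 2.28 (1.18 to 4.61), in a gene with fewer reads in K562. By the smaller of its 2 differences this exon ranked 27 among all 11222, APLP2 exon 7 ranked 50, the PICALM exon 147 and the NUMB leader exon 151. With 99% intervals the GOLIM4 exon was no longer counted.

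PICALM has a 24-base exon, exon 17 of its transcript, that was used more in HepG2. Reads into it numbered 10 of 52 in K562 (19.2%, 9.63 to 32.5), against 88 of 127 in HepG2 (69.3%, 60.5 to 77.2). Reads out of it numbered 0 of 42 in K562, which allows a share of up to 7.14% (the limit that 3 reads would give, used in the text for a share of 0, in place of an interval), and 11 of 50 in HepG2 (22.0%, 11.5 to 36.0). The spanning junctions had 42 reads in K562 against 39 in HepG2, and some of these reads end beyond the next exon. At the acceptor of the next exon alone, reads out of the 24-base exon were 0 of 31 in K562 and 11 of 35 in HepG2 (31.4%, 16.9 to 49.3). In both lines more reads entered the exon than left it. The 2 sides thus differ in the level of inclusion, and the cause of that was not tested. The exon is shorter than a footprint, so 1 footprint can cover both of its junctions, and how such reads were counted is not given in the sources used here. With 99% intervals it was no longer counted.

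The 150-base exon 13 of PICALM is the alternative exon known for this gene. It had 54 of 69 reads in (78.3%) in K562 and 16 of 31 (51.6%) in HepG2. It had 16 of 31 reads out (51.6%) in K562 and 13 of 28 (46.4%) in HepG2. The intervals overlapped on both sides, and the exon was not counted.

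The neuronal inserts of the clathrin light chains were nearly absent. Exon 5 of CLTA, of 54 bases, had 1 of 895 reads in and 0 of 894 out in K562, and 0 of 392 on either side in HepG2, which allows a share of up to 0.765% there. Exon 6 of CLTA, of 36 bases, had 2 of 894 reads in (0.224%) and 1 of 893 out (0.112%) in K562, and 0 of 392 on either side in HepG2. Exon 5 of CLTB, of 54 bases, had 1 of 117 reads in and 0 of 116 out in K562, and 0 of 43 in HepG2, which allows up to 6.98%. The CLTA and CLTB exons are alike in 35 of 54 bases (64.8%). No difference between the lines was detectable at this depth, and neuron markers were near 0 in both, as given beside APLP1. The CLTA junction that skips both inserts had 892 reads in K562 against 392 in HepG2.

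DNM2 makes a choice between a pair of exons 10, each of 139 bases, that code for alternative versions of the same stretch of the dynamin stalk. They are identical in 97 bases (69.8%). The first had 88 of 134 reads in (65.7%, 57.0 to 73.7) in K562 and 38 of 67 (56.7%, 44.0 to 68.8) in HepG2, and 78 of 124 out (62.9%) in K562 and 43 of 72 (59.7%) in HepG2. The second had 46 of 124 reads in (37.1%) in K562 and 29 of 72 (40.3%) in HepG2. It had 6 of 84 out (7.14%) in K562 and 7 of 50 in HepG2. The junction that spans 1 exon of this pair enters or leaves the other, so 124 and 72 mix reads of both ends. At the shared donor ahead of the pair, the second took 46 of 134 (34.3%) in K562 and 29 of 67 (43.3%) in HepG2. At the shared acceptor after it, the first took 78 of 84 (92.9%) in K562 and 43 of 50 (86.0%) in HepG2. The second thus had a larger share at the donor than at the acceptor in both lines, and the cause was not tested. Both versions were used in both lines, and all intervals of the lines overlapped. The 12-base exon of DNM2 had 34 of 49 reads in (69.4%) in K562 and 17 of 29 (58.6%) in HepG2, and 24 of 39 out (61.5%) in K562 and 9 of 21 (42.9%) in HepG2, again with overlap.

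NUMB has 2 coding inserts that make its classic isoforms, and a leader exon ahead of the start codon. The 33-base exon lengthens the phosphotyrosine-binding domain that ties NUMB to the membrane. It had 17 of 78 reads in (21.8%, 13.2 to 32.6) in K562 and 47 of 106 (44.3%, 34.7 to 54.3) in HepG2, but 18 of 79 out (22.8%, 14.1 to 33.6) in K562 and 16 of 75 (21.3%, 12.7 to 32.3) in HepG2. The 2 sides thus disagree on a difference, and the exon was not counted. The 144-base exon of the proline-rich region, known for inclusion in dividing cells, had 10 of 15 reads in (66.7%) in K562 and 22 of 29 (75.9%) in HepG2, and 13 of 18 out (72.2%) in K562 and 18 of 25 (72.0%) in HepG2. It was mostly included in both lines, with overlapping intervals.

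The leader exon of NUMB (chr14:73366897-73366981, 85 bases, noncoding) was the third exon counted as higher in HepG2. Reads into it numbered 64 of 144 in K562 (44.4%, 36.2 to 53.0), against 79 of 119 in HepG2 (66.4%, 57.2 to 74.8). Reads out of it numbered 13 of 93 in K562 (13.98%, 7.66 to 22.7), against 38 of 78 in HepG2 (48.7%, 37.2 to 60.3). Here too, more reads entered the exon than left it in both lines, and the cause of that was not tested. Of all mapped reads at its leaving junction, 13 of 35 were uniquely mapped in K562 and 38 of 97 in HepG2, so that side rests on the smaller part of its reads. With 99% intervals it was no longer counted. Footprints at this exon precede the start codon and say nothing of the protein made.

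APLP1 and BIN1 had too few reads for any exon. The brain exon 7 of BIN1, its muscle exon 11 and its clathrin-binding exons could not be described. Of 7 muscle markers, MYOD1 and MYOG were at 0 in both lines, and the summed reads were 1105 in K562 against 61 in HepG2, most of the K562 reads from DES and TNNT1.

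**Figure D4:**
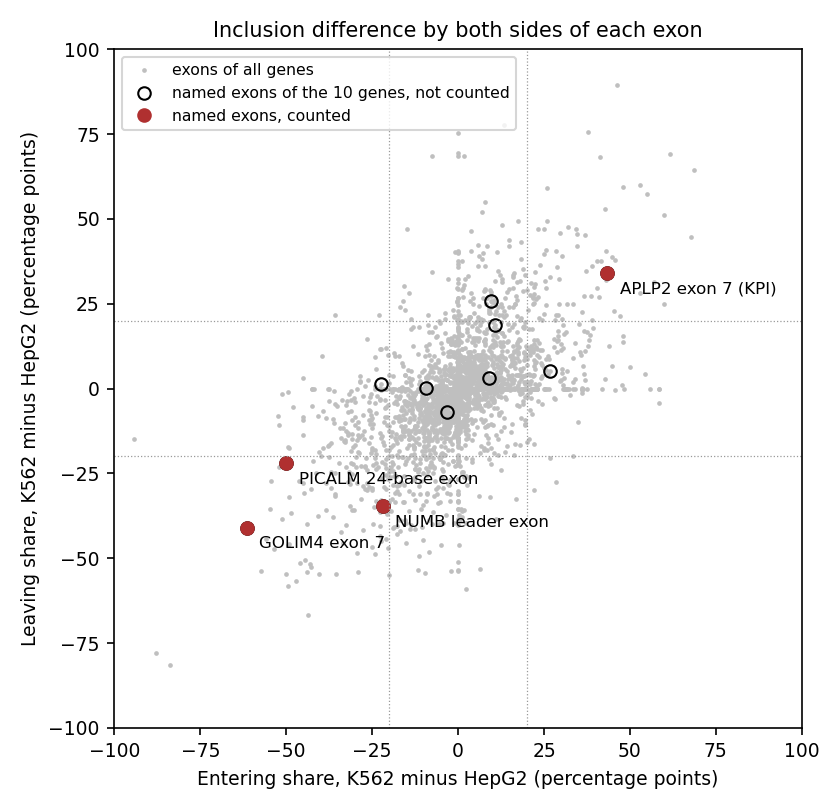
Difference in inclusion, K562 minus HepG2, in percentage points, by reads into each exon (horizontal) and out of it (vertical). Grey points are the 2462 exons of all genes with a mean inclusion between 5 and 95%. Open circles are named exons of the 10 genes in that range that were not counted, filled circles counted ones, and dotted lines mark 20 points. APLP2 exon 7 lies at 43.4 and 34.0, and exons of GOLIM4, PICALM and NUMB lie in the opposite corner. The pair of DNM2 exons 10 is placed by shares of which some mix reads of both ends.

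The third comparison took each junction as a share of all reads at its donor or acceptor, which also sees alternative splice sites. Of 104 member junctions compared, 16 were counted in either line, 5 each in APLP2 and NUMB and 3 each in PICALM and GOLIM4, while 2.37% of 49482 junctions of all genes were counted. All 16 lie at the exons described above. They are the KPI exon and exon 14 of APLP2, exon 7 of GOLIM4, the 24-base exon of PICALM, and the 33-base and leader exons of NUMB. Shares at a site are complementary and an exon has 2 sides, so these are not 16 separate changes. None of the 11 junctions compared in CLTA, 3 in CLTB and 19 in DNM2 was counted.

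The lengths of the exons were compared next, since a length that is a multiple of 3 keeps the reading frame. Of the 37 member exons compared, 24 (64.9%) had such a length, as had 3 of the 4 counted, against 39.8% of all exons compared and 48.0% of the 75 counted in all genes. The exception among the 4 is the noncoding leader exon of NUMB. For a mean inclusion between 5 and 95%, the shares were 70.6% of 17 member exons and 44.8% of 2462 exons of all genes. Some of the 24 are noncoding or had no read that includes them in either line. The members were chosen for known alternative exons, so no more is read from these shares. The direction was not shared, with 1 exon higher in K562 and 3 in HepG2. In DNM2, where no exon was counted, the log2 ratios of 17 junctions ran between -1.59 and 1.53, and in PICALM, with 1 exon counted, those of 18 ran between -1.71 and 1.75.

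Other genes of the same routes were taken from lists and are described by counts. Of 41 listed genes of clathrin-mediated endocytosis, 36 were compared, 4 lay higher in K562 and 2 in HepG2, and 30 passed neither limit, which is 11.1% for K562 and 5.56% for HepG2 beside 16.8% and 21.9% of all genes. The median log2 ratio was 0.27, against -0.01 for all genes. The 4 listed genes with the most reads passed neither limit. CLTC, the clathrin heavy chain, had 12306 reads in K562 against 16213 in HepG2, HSPA8, which uncoats vesicles, had 14906 in K562 against 9455 in HepG2, and TFRC, the transferrin receptor carried by these vesicles, had 10273 in K562 against 11898 in HepG2. AP2M1, the cargo-binding subunit of the AP2 adaptor, had 2823 reads in K562 against 1329 in HepG2, a ratio of 2.11 (1.98 to 2.26) that passed neither limit.

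The 4 endocytosis genes higher in K562 included relatives of members. DNAJC6 (auxilin), the partner of HSPA8 known from neurons, had 909 reads in K562 against 24 in HepG2, a ratio of 37.7 (25.2 to 59.1). NUMBL, the relative of NUMB, had 66 reads in K562 against 3 in HepG2, and DNM1, the neuronal dynamin, had 38 in K562 against 4 in HepG2. EPS15, an adaptor scaffold, had 2195 reads in K562 against 876 in HepG2, a ratio of 2.49 (2.31 to 2.70). EPN2 (epsin 2), with 27 reads in K562 against 92 in HepG2, and SH3GL1 (an endophilin), with 239 in K562 against 596 in HepG2, were higher in HepG2, and both were named after their values were seen. With total reads as the scale, which shifts the median of all genes to 0.41, the endocytosis calls were 11 for K562 and 0 for HepG2. AP2M1 and HSPA8 were among the genes added, and EPN2 and SH3GL1 lost their calls.

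**Figure D5:**
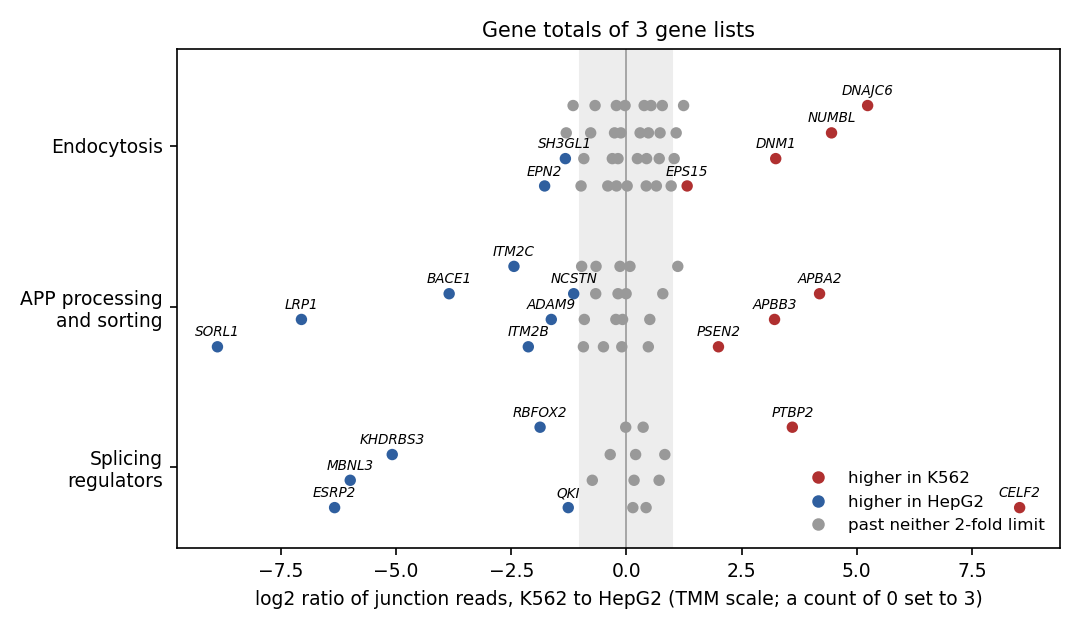
Gene totals of listed genes. Each point is a gene at its log2 ratio of junction reads, K562 to HepG2, on the TMM scale, the height within a list only separates points, and the grey band marks 2-fold. SORL1 at -8.88, ESRP2 at -6.33 and BACE1 at -3.85 rest on a count of 0 in K562 that was set to 3 reads. CELF2 at 8.54 and APBB3 at 3.22 rest on such a count in HepG2.

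Of 31 listed genes that cut, sort or bind APP, 27 were compared, 3 lay higher in K562 and 7 in HepG2, and 17 passed neither limit, with a median log2 ratio of -0.23. The calls are 11.1% for K562 and 25.9% for HepG2, beside 16.8% and 21.9% of all genes. The sorting receptor SORL1 had 0 reads in K562 against 1405 in HepG2, which puts it at least 382-fold lower in K562. LRP1, an uptake receptor that binds APP, had 35 reads in K562 against 4632 in HepG2, and BACE1, the beta-secretase, had 0 in K562 against 43 in HepG2, which puts it at least 11.2-fold lower in K562. ADAM10, an alpha-secretase, had 1349 reads in K562 against 2565 in HepG2 and passed neither limit. NCSTN, a subunit of gamma-secretase, was higher in HepG2, with 853 reads in K562 against 1877 in HepG2, a HepG2-to-K562 ratio of 2.21 (2.04 to 2.40). NCSTN lost this call with 99% intervals and with total reads as the scale, where its log2 ratio was -0.73. PSEN2 was higher in K562, with 289 reads in K562 against 72 in HepG2.

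The other called genes of this list lay in both directions. ITM2B, an inhibitor of APP processing, had 1220 reads in K562 against 5314 in HepG2 and, with ITM2C and ADAM9, was higher in HepG2. The adaptor genes APBA2, with 147 reads in K562 against 8 in HepG2, and APBB3, with 28 in K562 against 0 in HepG2, were higher in K562. VPS35, of the retromer that returns cargo to the Golgi, had 2158 reads in K562 against 3392 in HepG2 and passed neither limit. PSEN2, NCSTN, ITM2C, ADAM9 and APBB3 were named after their values were seen.

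Of 24 listed regulators of tissue-specific exons, 17 were compared, 2 lay higher in K562 and 5 in HepG2, and 10 passed neither limit, with a median log2 ratio of 0.14 and a mean of -0.39, which differ in sign. The calls are 11.8% for K562 and 29.4% for HepG2, beside 16.8% and 21.9% of all genes. CELF2 had 1119 reads in K562 against 0 in HepG2, which puts it at least 301-fold higher in K562, and PTBP2, the neuronal relative of PTBP1, had 671 in K562 against 55 in HepG2. ESRP2, an epithelial regulator, had 0 reads in K562 against 241 in HepG2, which puts it at least 65.1-fold lower in K562. MBNL3 had 26 reads in K562 against 1651 in HepG2, KHDRBS3 had 20 in K562 against 675 in HepG2, RBFOX2 had 131 in K562 against 478 in HepG2, and QKI had 729 in K562 against 1741 in HepG2. PTBP1 had 7977 reads in K562 against 7077 in HepG2, TRA2B 5145 in K562 against 4648 in HepG2, KHDRBS1 5013 in K562 against 3879 in HepG2, and SRSF10 3620 in K562 against 2203 in HepG2, and these 4 passed neither limit. PTBP2, RBFOX2 and QKI were named after their values were seen. With total reads as the scale, 4 regulators were higher in K562, PTBP3 and SRSF10 being added, and 4 in HepG2, where QKI at -0.84 lost its call. QKI also lost it without junctions at alternative exons, at -1.09. Whether any of these regulators bears on the exons above was not tested.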

How the data were processed

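Ribosome footprints were sequenced from 2 samples each of K562 and HepG2. Per the file headers, the deposited tables hold raw counts of reads at each annotated splice junction on GRCh38, in 1 column of all mapped and 1 of uniquely mapped reads, with both samples of a line in 1 table per the labels. The submitters' processing notes list STAR 2.6.0, Bowtie2 and cutadapt without their roles. The counting program and annotation release were not given in the sources used here. Junctions matched GENCODE release 29 introns in 350029 of 350863 cases (99.8%), and in 265 of 265 for the 10 genes. Only footprints that cross a junction were used, and signal tracks were not used here.

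Gene totals are sums of uniquely mapped reads at junctions that belong to 1 gene (minimum 20 over both tables). TMM factors (edgeR 4.0.16) were 1.16 for K562 and 0.865 for HepG2. Ratios have exact conditional binomial intervals, and a floor of 3 per table stood in for a count of 0. Shares have Clopper-Pearson intervals with 10 or more reads per denominator. Without molecular identifiers reads are not separate molecules, so intervals and limits at 0 cover counting error only. Folds written "at least" are interval bounds. The edgeR or DESeq2 tests need replicates and were not run. Procedures were tested on simulated data. The software was R 4.3.3, Python 3.11.15, pandas 2.3.3, scipy 1.17.1 and, for an alternative scaling, DESeq2 1.42.0.

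Named were all 10 genes, their exons counted as different or known by name, and per list up to 4 genes with the most reads and up to 4 past 2-fold by the interval bound nearest 1. The genes, exons and lists were chosen with earlier results of these data known. Alternatives covered scaling, read class, minimums, intervals, spanning junctions, size rules, single junctions and shared junctions.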

Additional observations from a re-analysis of the deposited data

Results flagged for a closer look

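A junction of APLP2 annotated in GENCODE (chr11:130109550-130110573) had 0 uniquely mapped reads in both lines, and so added nothing to the main comparisons. Among all mapped reads it had 47 in K562 against 88 in HepG2, which entered only the alternative with all mapped reads. It overlaps the junction between the second and the third exon, which had 417 uniquely mapped reads in K562 and 1428 in HepG2. Where else these reads map was not tested.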

How the results depend on the processing

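No paired analysis was possible because each line has 1 table that pools its samples, and for the same reason no replicate could be left out in turn. With total reads in place of TMM, the median log2 ratio of all genes moved to 0.41, against -0.01, and K562 took 58.0% of the calls (2656 for K562 and 1925 for HepG2), against 43.3% (1836 and 2402). On that scale 1 member gene was higher in K562 (CLTB at 1.49, against 1.07), GOLIM4 at -0.83 lost its call, and APLP1 and NUMB changed sign to 0.31 and 0.10. The endocytosis calls then were 11 for K562 and 0 for HepG2, and those of splicing regulators were 4 for K562 and 4 for HepG2. The 2 endocytosis genes higher in HepG2 became 1 with all mapped reads, 4 with a minimum of 1 read, 1 with 99% intervals and 0 without the most-read junction of each gene, and the 4 higher in K562 became 2 with a minimum of 100 reads. With 99% intervals, the exon calls over all genes were 17 for K562 and 23 for HepG2 (30 and 45 with 95%), 0 member exons were higher in HepG2 in place of 3, and 745 junction shares were counted in place of 1172. A limit of 10 points gave 51 exon calls for K562 and 91 for HepG2, and the mean of both sides gave 124 and 185. Why these counts moved was not tested beyond the stricter or looser rule itself. The other 285 values under alternatives kept their call or stayed within 1.5 times, among them every value for APP, APLP2 and its KPI exon. Among the uncalled ones, when spanning junctions had to share both ends, the mean inclusion of the NUMB 144-base exon differed by 2.39 points, against -4.38, and that of the first DNM2 exon 10 by 0.0, against 6.07, since no spanning read was left for it and its share was 100% in both lines. The second exon 10 then had too few reads for a value. A minimum of 100 reads leaves no value for APLP1 and BIN1. Depth limits APLP1 and BIN1 most, with fewer than 20 reads in either line.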
